A study of Homo sapiens with 14 samples.

Results

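SLC6A8, SLC6A6, SLC6A9 and SLC6A15 encode the creatine, taurine, glycine and a neutral amino acid transporter of the SLC6 family, and they are the 4 genes described here out of 24729 in a table of RNA-seq read counts. They were chosen by name because their transcripts moved in different directions between K562 populations. The differences between populations that follow are therefore the values that chose the genes, and they are given as a description with no test. All 4 passed the filter on low counts, which kept 14406 genes, and SLC6A15 did so without a read in unmodified cells.

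K562 cells come from a human leukemia and keep erythroid features, and 14 libraries of it were sequenced to ask how guide RNAs aimed at the β-globin cluster affect gene expression across the genome. Cells of 4 populations stably carried catalytically inactive Cas9 (dCas9) with the Flag-bio tag, the biotin ligase BirA and guide RNA. Guides in 3 of them were aimed at elements of that cluster. These were sgHS2 (n = 3, a single enhancer), sgHBG (n = 3, a promoter) and sgHS1-5 (n = 3, the control region). The guide of sgGal4 (n = 3) targets nothing in that cluster. The fifth group, WT (n = 2), was K562 with neither dCas9 nor a guide. The labels do not say whether a population is 1 clone or whether replicates were separate cultures, so SEs and p-values measure only the spread between these libraries. With 1 population for each guide label, an effect of its guide RNA and a difference between established populations cannot be told apart.

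SLC6 proteins sit in the plasma membrane and carry small solutes into the cell together with sodium and, for most members, chloride. SLC6A8 imports creatine, the substrate of the phosphocreatine energy buffer, and SLC6A6 (TAUT) imports taurine, an organic osmolyte. SLC6A9 (GlyT1) imports glycine, which erythroid cells condense with succinyl-CoA in the first step of heme synthesis. SLC6A15 (B0AT2) imports neutral amino acids such as leucine and proline and is best known from the brain.

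The libraries held 5694448 to 11335831 counted reads, with the 3 lowest totals in sgHS1-5, and 3 reads corresponded to 0.262 to 0.486 CPM in a library, where CPM are counts relative to library size after TMM scaling. Of the 14 libraries, 4 stood apart from others of their group, sgGal4 1, sgHS2 2 and sgHS1-5 2 in a chi-square of their counts over genes and sgHS1-5 3 by the transcripts it held. Library sgGal4 1 differed from sgGal4 2 and 3 by 84.2 and 87.6 per degree of freedom, against 1.46 between sgGal4 2 and 3. It was lower for long transcripts, with a median log2 deviation from sgGal4 2 and 3 of -0.66 for genes of the longest of 5 equal length classes and 0.81 for those of the shortest. Library sgHS2 2 differed from sgHS2 1 and 3 by 16.3 and 15.6, against 1.71 between those. Library sgHS1-5 2 differed from sgHS1-5 1 and 3 by 17.1 and 11.2, against 3.01 between those. Libraries sgHS1-5 2 and 3 held 2117 and 511.7 CPM in 140 transcripts, picked for being nearly limited to sgHS1-5, against 78.06 CPM in sgHS1-5 1 and 3.32 to 6.28 CPM in every library of the other groups.

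Of the 4 genes, RefSeq promoter sequences were matched only for SLC6A8 and SLC6A9, and the 250 bases before each start are shown for these 2. Both are on build GRCh38.p14, 5′ to 3′ on the gene's own strand, which is the forward strand for SLC6A8 at chrX:153687676-153687925 and the reverse strand for SLC6A9 at chr1:44031463-44031712. Capitals mark the GC box GGGCGG on either strand.
SLC6A8: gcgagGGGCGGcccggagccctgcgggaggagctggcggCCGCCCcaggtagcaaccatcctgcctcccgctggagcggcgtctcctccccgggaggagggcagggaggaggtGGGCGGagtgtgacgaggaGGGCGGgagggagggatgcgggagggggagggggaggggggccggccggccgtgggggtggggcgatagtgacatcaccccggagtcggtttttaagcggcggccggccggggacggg
SLC6A9: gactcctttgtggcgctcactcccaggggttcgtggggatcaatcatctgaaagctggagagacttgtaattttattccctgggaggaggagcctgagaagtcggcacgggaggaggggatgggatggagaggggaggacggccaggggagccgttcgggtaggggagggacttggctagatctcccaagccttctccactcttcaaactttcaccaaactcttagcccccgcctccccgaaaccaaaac
The SLC6A8 stretch held 4 GC boxes, which began 245, 137 and 118 bases before the start on the gene's strand and 211 bases before it on the opposite strand, and 42.6% of 35116 RefSeq promoters of this length held at least 1. Its G and C content was 76.4% with 25 CpG, against 57.6% with 9 CpG for SLC6A9 and a median of 58.0% and 11 CpG over all promoters. The SLC6A9 stretch held none of the letters searched, which on both strands were the GC box, the CCAAT box (in 32.0% of promoters), the TATA box TATAAA (10.7%), the GATA motif written AGATAA (9.2%) or AGATAG (5.7%), the ATF4 and C/EBP composite TGATGNAA (3.1%) and the cyclic AMP response element TGACGTCA (1.6%). In SLC6A8 only the GC box matched. The 2 forms of the GATA motif differ in their last letter and cannot match at the same place, and a match is a description of letters, not of binding.

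SLC6A8, on chromosome X, was high in sgHS2 and sgHS1-5 and lowest in sgGal4. Its level was 231.2, 264.3 and 223.1 CPM in sgHS2 libraries, 62.8, 62.9 and 65.0 CPM in sgHBG, 333.0, 234.9 and 320.7 CPM in sgHS1-5, 38.7, 40.7 and 41.2 CPM in sgGal4, and 61.2 and 69.5 CPM in WT. Every sgHS2 and sgHS1-5 library lay above every library of the other 3 groups, and every sgGal4 library lay below all others. From high to low the group means were sgHS1-5, sgHS2, WT, sgHBG and sgGal4, and the ranges overlapped between sgHS1-5 and sgHS2 and between WT and sgHBG. Relative to sgGal4, the ratio of mean CPM was 5.96 for sgHS2, 1.58 for sgHBG and 7.36 for sgHS1-5. The fitted log2 differences from sgGal4 were 2.57 ± 0.13 for sgHS2, 0.66 ± 0.13 for sgHBG and 2.88 ± 0.14 for sgHS1-5 (SE). Since sgGal4 itself was 1.62-fold lower than WT (log2 -0.70 ± 0.14), the ratios to WT were smaller, at 3.67 for sgHS2, 0.973 for sgHBG and 4.53 for sgHS1-5. Between populations with guides aimed at the cluster, sgHS1-5 was 4.66-fold and sgHS2 3.77-fold above sgHBG. The log2 difference of sgHS1-5 from sgHS2 was 0.31 ± 0.12 with overlapping libraries, and 0.22 to 0.46 without each library in turn. That overlap was only between sgHS2 2 at 264.3 CPM and sgHS1-5 2 at 234.9 CPM, which both stood apart from others of their group.

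SLC6A8 has a near-identical pseudogene, SLC6A10P, and how reads shared by such copies were assigned is not given in the sources used here. SLC6A10P held 29 to 45 reads a library in sgHS2, 12 to 24 in sgHBG, 42 to 66 in sgHS1-5, 1 to 12 in sgGal4, and 3 and 4 in WT. That was 0.365 to 3.12% of the reads of both genes together. At that share the pseudogene's reads could change the values little, and adding them does not show how shared reads were assigned. With those reads added to SLC6A8, the log2 difference from sgGal4 was 2.58 for sgHS2, 0.68 for sgHBG and 2.90 for sgHS1-5. Without sgHS1-5 2 and 3, the remaining sgHS1-5 library gave 3.05.

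SLC6A9, on chromosome 1, was highest in WT and close to the bottom of the count range in sgHS1-5. Its level was 32.5, 33.9 and 27.9 CPM in sgHS2, 33.1, 33.7 and 32.5 CPM in sgHBG, 3.56, 2.59 and 4.06 CPM in sgHS1-5, 18.6, 28.1 and 27.1 CPM in sgGal4, and 94.4 and 103.5 CPM in WT. The sgHS1-5 libraries held 22, 19 and 30 reads of it, against 981 and 1136 reads in WT. WT stood above and sgHS1-5 below every other library, whereas sgHS2 overlapped both sgHBG and sgGal4. Compared with WT, the mean level was 3.15-fold lower in sgHS2, 2.99-fold lower in sgHBG, 29.1-fold lower in sgHS1-5 and 4.03-fold lower in sgGal4. On the log2 scale these were -1.65 ± 0.17, -1.58 ± 0.16, -4.86 ± 0.20 and -2.00 ± 0.17 (SE), in the same order. Every population with dCas9 was thus below WT, and sgHS1-5 was a further 7.22-fold below sgGal4 (log2 -2.86 ± 0.19) and 9.24-fold below sgHS2. The small differences of sgHS2 and sgHBG from sgGal4, 0.35 ± 0.15 and 0.42 ± 0.15, became 0.19 and 0.26 without sgGal4 1, in which SLC6A9 deviated by -0.56 on the log2 scale.

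SLC6A15, on chromosome 12, had no read in WT and was present in every dCas9 population. It had 13, 10 and 15 reads in sgHS2, 206, 225 and 245 in sgHBG, 70, 55 and 66 in sgHS1-5, 280, 596 and 578 in sgGal4, and 0 and 0 in WT. In CPM these were 1.14, 1.07 and 1.38 in sgHS2, 20.6, 20.1 and 21.4 in sgHBG, 11.3, 7.51 and 8.92 in sgHS1-5, and 39.7, 57.7 and 53.0 in sgGal4. No 2 groups overlapped, and the order from high to low was sgGal4, sgHBG, sgHS1-5, sgHS2 and WT. In both WT libraries together 3 reads correspond to 0.140 CPM, the upper limit that 0 reads allow, and against that limit the level was at least 8.53-fold higher in sgHS2, 147-fold in sgHBG, 65.9-fold in sgHS1-5 and 357-fold in sgGal4. This limit covers counting error only. Relative to sgGal4, the mean was 41.9-fold lower in sgHS2 (log2 -5.37 ± 0.22), 2.42-fold lower in sgHBG (log2 -1.28 ± 0.16) and 5.42-fold lower in sgHS1-5 (log2 -2.45 ± 0.18). SLC6A15 was 7.73-fold higher in sgHS1-5 than in sgHS2, against 1.24-fold for SLC6A8, whose levels in these groups overlapped only through libraries that stood apart. Without sgHS1-5 2 and 3, the log2 difference of sgHS1-5 from sgGal4 was -2.15.

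SLC6A6, on chromosome 3, varied least. Its level was 192.7, 152.0 and 195.5 CPM in sgHS2, 219.0, 225.2 and 233.8 CPM in sgHBG, 240.3, 184.5 and 230.1 CPM in sgHS1-5, 83.98, 181.4 and 199.2 CPM in sgGal4, and 184.0 and 186.0 CPM in WT. In the order sgHBG, sgHS1-5, WT, sgHS2 and sgGal4, all neighbours overlapped. The log2 differences from sgGal4 were 0.22 ± 0.24 for sgHS2, 0.54 ± 0.24 for sgHBG and 0.49 ± 0.24 for sgHS1-5 (SE). They depended in part on sgGal4 1, which lay 1.18 below sgGal4 2 and 3 on the log2 scale, and were -0.08, 0.25 and 0.20 without it. The transcript length implied by the ratio of counts to RPKM was 6.95 kb, in the longest of the 5 length classes, whose median deviated by -0.66 in that library. Against WT the log2 differences were -0.04 for sgHS2, 0.29 for sgHBG, 0.24 for sgHS1-5 and -0.25 for sgGal4, each with an SE of 0.27.

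**Figure D1:**
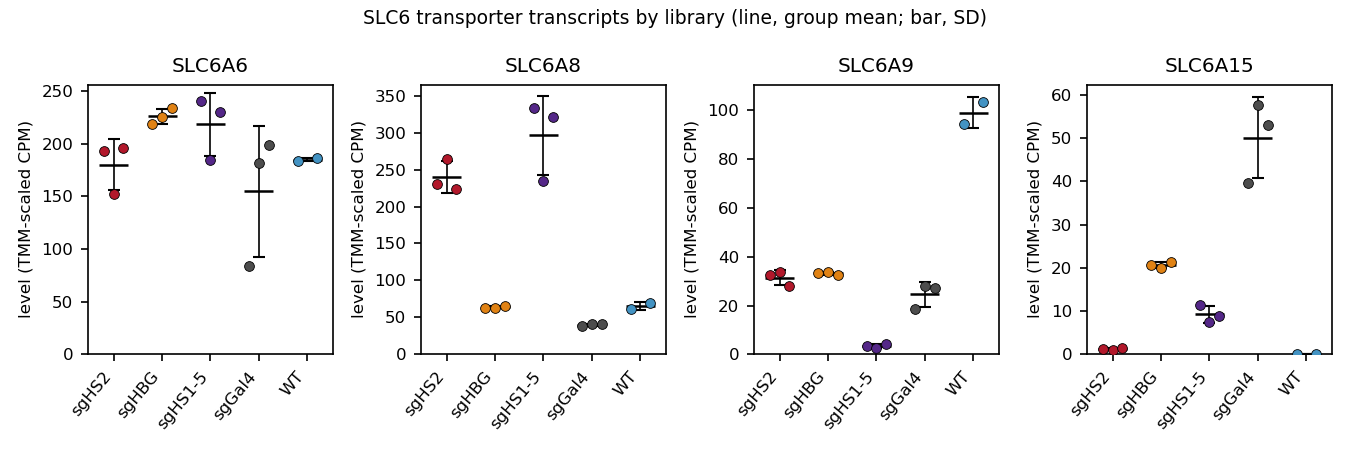
Level of each transporter (TMM-scaled CPM, linear axis from 0) in every library, with the group mean as a line and the SD as a bar (n = 3, or 2 for WT). SLC6A8 was highest in sgHS1-5 and sgHS2, SLC6A9 in WT and SLC6A15 in sgGal4, while the SLC6A6 libraries lay between 83.98 and 240.3 CPM.

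Between sgHS2 and sgGal4 the libraries did not overlap for SLC6A8 and SLC6A15, and 40.2% of genes tested did not overlap there. For sgHBG against sgGal4 none of the 4 genes overlapped (47.7% of genes tested did not), for sgHS1-5 against sgGal4 it was 3 genes without SLC6A6 (45.5%), and for sgGal4 against WT the same 3 (61.2%). Against WT, the count was 3 for sgHS2 (66.5% of genes tested), 3 for sgHBG (77.0%) and 3 for sgHS1-5 (70.0%). It was 3 for sgHS2 against sgHBG (44.0%), 3 for sgHS1-5 against sgHBG (52.6%) and 2 for sgHS1-5 against sgHS2 (53.6%). Comparisons with the same control share its libraries. All of these comparisons chose the genes, so nothing is read from the counts. In sgHS1-5 SLC6A8 was above and SLC6A9 and SLC6A15 below sgGal4, in sgHS2 SLC6A8 was above and SLC6A15 below it, and in sgHBG the same signs as in sgHS2 were seen at smaller size. Fewer cells that express a gene and less RNA per cell cannot be told apart in these bulk samples.

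**Figure D2:**
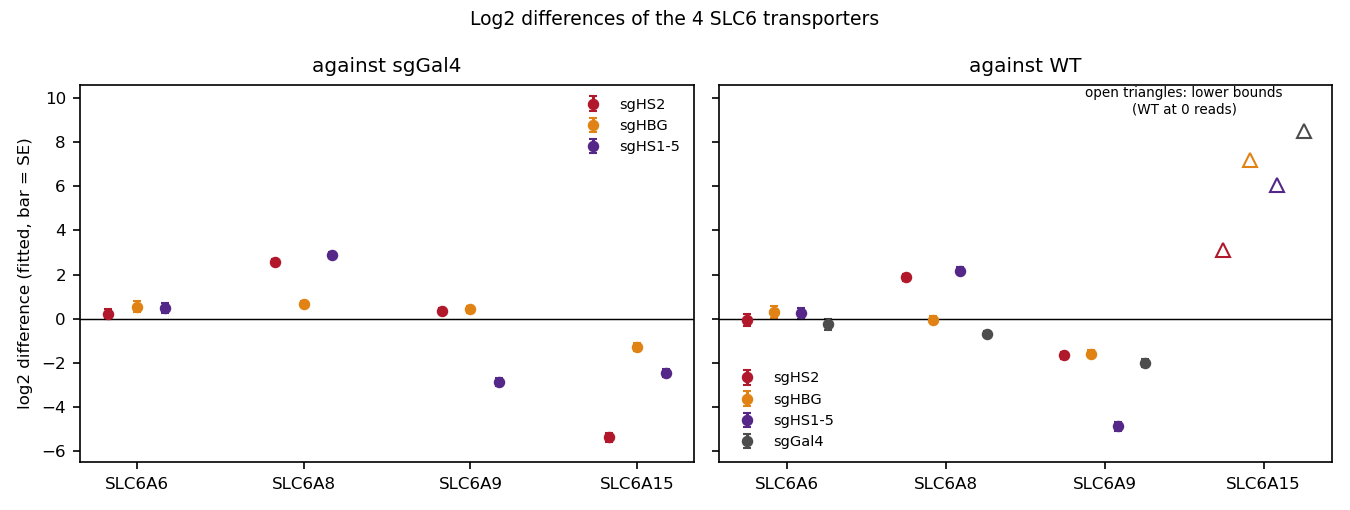
Fitted log2 differences (bars, SE) of the 4 transporters from sgGal4 (left) and from WT (right). Open triangles are lower bounds for SLC6A15, which had 0 reads in WT. SLC6A8 reached 2.88 and SLC6A15 -5.37 against sgGal4, and SLC6A9 -4.86 against WT.

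The make-up of the family's transcripts was compared in the deposited RPKM, a level per transcript length. The 4 genes made up 96.2 ± 0.277% of the RPKM summed over 20 SLC6 genes in sgHS2, 96.4 ± 0.39% in sgHBG, 97.4 ± 0.203% in sgHS1-5, 95.6 ± 1.15% in sgGal4 (SD, n = 3 each) and 96.1 ± 0.0774% in WT (SD, n = 2). The highest mean share differed by group. SLC6A8 held 65.4% in sgHS2 and 71.2% in sgHS1-5, SLC6A6 held 45.1% in sgHBG and 36.6 ± 7.48% in sgGal4 (SD, n = 3), and SLC6A9 held 38.5% in WT. In sgGal4 1 SLC6A8 was ahead, at 28.7% against 28.1% for SLC6A6. SLC6A9 held 0.750% in sgHS1-5, and SLC6A15 held 22.8% in sgGal4 and 0% in WT. The summed family RPKM was 119.4 to 124.9 in sgHS2, 71.4 to 75.7 in sgHBG, 114.6 to 157.0 in sgHS1-5, 45.2 to 68.8 in sgGal4, and 84.2 and 86.2 in WT.

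**Figure D3:**
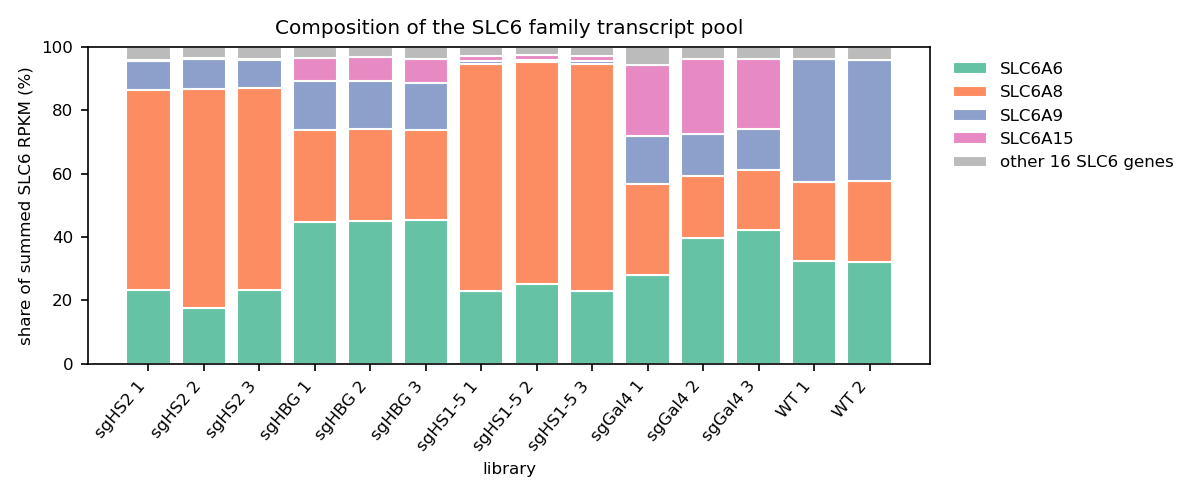
Share of the summed SLC6 RPKM (%) held by each of the 4 transporters and by the other 16 family genes, 1 bar per library. SLC6A8 takes most of the bar in sgHS2 and sgHS1-5, SLC6A9 is widest in WT and SLC6A15 in sgGal4.

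The other genes of these pathways were tested with edgeR across all 14406 genes. As background, 14.5% of genes rose and 15.6% fell in sgHS2 against sgGal4, 12.1% rose and 12.6% fell in sgHBG, 20.3% rose and 20.2% fell in sgHS1-5, and 22.7% rose and 19.6% fell in sgGal4 against WT. The median log2 differences of all genes were -0.0159, -0.00125, 0.0187 and 0.0344 in the same order. The list counts below stand beside these shares, without a test of the lists.

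Of 16 other SLC6 genes, 6 were tested, and the 10 left out had at most 4 reads in any library. In sgHS2 3 rose (list median log2 0.81), in sgHBG 1 rose (0.21), in sgHS1-5 2 rose (0.23), and in sgGal4 against WT 1 rose and 1 fell (0.32). SLC6A19, a neutral amino acid transporter of gut and kidney, had 9.79, 8.15 and 7.28 CPM in sgHS2, against 2.41, 2.61 and 3.03 CPM in sgGal4 (log2 1.64 ± 0.30, edgeR adjusted p = 0.00133). SLC6A10P, the SLC6A8 pseudogene, averaged 3.51 ± 0.412 CPM in sgHS2 and 0.526 ± 0.554 CPM in sgGal4 (edgeR adjusted p = 0.00128), and 8.07 ± 2.05 CPM in sgHS1-5 (edgeR adjusted p = 6.88e-05). The log2 differences from sgGal4, 2.64 for sgHS2 and 3.83 for sgHS1-5, were 3.92 and 5.11 without sgGal4 2. SLC6A10P was among the rises counted in sgHS2 and sgHS1-5 and was the 1 rise in sgHBG. How reads shared with SLC6A8 were assigned is not given, so its calls may not be separate from the values that chose SLC6A8. Its share of the reads of both genes was not constant, at 0.47 and 0.52% in WT and 2.38 to 2.79% in sgHS1-5. SLC6A13, a transporter of GABA and taurine, was at 0.929 ± 0.0902 CPM in sgGal4 and 2.91 ± 0.377 CPM in WT (edgeR adjusted p = 0.00221). SLC6A12, the betaine transporter, rose in sgGal4 against WT (log2 2.48 ± 0.65, edgeR adjusted p = 0.00832), with a log2 of 3.42 without WT 1 and 1.88 without WT 2, when the call was lost. All of these were minor members of the family by RPKM. The call of SLC6A10P in sgHBG (edgeR adjusted p = 0.0488) was lost without sgGal4 1 among other libraries. So was that of SLC6A16, an orphan member, in sgHS2 (0.0365) and sgHS1-5 (0.0451).

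Creatine synthesis and creatine kinases had 3 tested genes of 7. In sgHS2 1 fell (list median log2 -0.71), in sgHS1-5 1 rose (0.14), and in sgGal4 against WT 1 rose (0.59). In sgHBG edgeR called 0 (median -0.59), with 2 lower at an unadjusted p under 0.05 and 0 called by DESeq2. CKB, the brain-type creatine kinase, averaged 107 ± 24.8 CPM in sgHS2 and 232 ± 108 CPM in sgGal4 (log2 -1.11 ± 0.26, edgeR adjusted p = 0.00710). Its sgGal4 libraries were at 356, 173 and 166 CPM, and without sgGal4 1 the log2 difference was -0.66 (edgeR adjusted p = 0.00646). GATM, which makes the creatine precursor guanidinoacetate, was called higher in sgHS1-5 (edgeR adjusted p = 0.00342), but its 0.486, 8.74 and 2.57 CPM show that sgHS1-5 2 and 3 carried it. The call was lost without either of those libraries, and without sgGal4 1 all 3 genes were higher in sgHS1-5. GAMT, which methylates guanidinoacetate to creatine, rose in sgGal4 against WT (log2 1.27 ± 0.33, edgeR adjusted p = 0.00800) unless WT 1 was left out, and by a log2 of 0.73 (edgeR adjusted p = 0.00258) without sgGal4 1, which was the highest of 84.0, 34.1 and 36.6 CPM in sgGal4. Without sgGal4 2 or without sgGal4 3 the sgHS2 count was 2 lower, and the sgHBG count was 1 lower without sgGal4 2 and 2 lower without sgGal4 3.

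Around SLC6A6, the taurine and osmolyte list had 10 tested genes of 13. In sgHS2 2 rose (list median log2 0.23), in sgHS1-5 3 rose (0.30), and in sgGal4 against WT 1 rose and 2 fell (-0.16). In sgHBG edgeR called 0 (median 0.15), with 2 higher and 1 lower at an unadjusted p under 0.05 and 0 called by DESeq2. SLC5A3, the sodium-coupled myo-inositol transporter, averaged 238 ± 29.0 CPM in sgHS1-5 and 96.0 ± 44.2 CPM in sgGal4 (log2 1.31 ± 0.29, edgeR adjusted p = 0.00404), and it rose in sgGal4 against WT (log2 1.22 ± 0.34, edgeR adjusted p = 0.0119), a call lost without either WT library. NFAT5, the transcription factor of the osmotic response, was called higher in sgHS1-5 (log2 0.88 ± 0.29, edgeR adjusted p = 0.0292, and log2 0.57 without sgGal4 1), a call lost without any 1 of the sgHS1-5 libraries. LRRC8D, a subunit of the volume-regulated anion channel that can pass taurine, rose in sgHS2 (log2 0.57 ± 0.12, edgeR adjusted p = 0.00393) and fell in sgGal4 against WT (log2 -0.80 ± 0.13, edgeR adjusted p = 0.000443). CSAD, an enzyme of taurine synthesis, was called higher in sgHS2 (edgeR adjusted p = 0.0409), which was lost without any 1 sgHS2 library, and lower in sgGal4 against WT (edgeR adjusted p = 0.0148), which was lost without WT 2. The third rise in sgHS1-5, of AKR1B1, an aldose reductase at 9.96 ± 10.7 CPM in sgHS1-5 (SD, n = 3), had an edgeR adjusted p of 0.0310 and was lost without sgHS1-5 2, sgGal4 2 or sgGal4 3. Its log2 difference of 1.74 became 0.41 without sgHS1-5 2 and -0.62 without sgHS1-5 2 and 3. The sgHS1-5 count was 1 without sgHS1-5 2 and 5, with 4 rises, without sgGal4 1. The sgHS2 count was 1 without sgHS2 1 among other libraries, that of sgGal4 against WT was 1 without WT 2, and that of sgHBG was 2 without sgGal4 1 and 1 without sgGal4 3 or sgHS1-5 2.

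Serine and glycine metabolism, the intracellular source beside SLC6A9 import, had 13 tested genes of 15. In sgHS1-5 9 fell and 1 rose (list median log2 -0.65), in sgGal4 against WT 6 fell (-0.50), in sgHS2 3 fell (-0.23), and in sgHBG 2 fell (-0.24). PHGDH, the first enzyme of serine synthesis, had 43.2, 113 and 59.1 CPM in sgHS1-5, against 542, 356 and 347 CPM in sgGal4 (log2 -2.52 ± 0.29, edgeR adjusted p = 4.36e-05). No sgHS1-5 library reached the lowest sgGal4 library, and without sgHS1-5 2 and 3 the log2 difference was -3.26. SHMT2, the mitochondrial enzyme that makes glycine from serine, averaged 194 ± 36.7 CPM in sgHS1-5 and 304 ± 22.7 CPM in sgGal4 (log2 -0.65 ± 0.13, edgeR adjusted p = 0.00185), and it was 2.37-fold lower in sgGal4 than in WT (log2 -1.24 ± 0.14, edgeR adjusted p = 1.76e-05). MTHFD1L, of mitochondrial folate metabolism, fell in sgHS2 (log2 -1.01 ± 0.11, edgeR adjusted p = 3.33e-05) and in sgHS1-5 (log2 -1.04 ± 0.11, edgeR adjusted p = 2.53e-05). PSPH, the last enzyme of serine synthesis, fell in sgGal4 against WT (log2 -1.04 ± 0.14, edgeR adjusted p = 7.78e-05) and in sgHS1-5, where the call (0.00537) was lost without sgHS1-5 2 and 3 together. The 1 rise in sgHS1-5 was of MTHFD1, a cytosolic folate enzyme (log2 0.65 ± 0.12, edgeR adjusted p = 0.000965). The falls in sgHS2 were of MTHFD1L, DLD and SHMT1, and those in sgHBG of MTHFD1L and DLD. The sgHS1-5 counts became 5 lower and 1 higher without sgHS1-5 2 and 3, and 8 lower and 3 higher without sgGal4 1. In sgGal4 against WT 9 fell without sgGal4 1 and 3 without WT 2. The sgHS2 counts were 4 lower and 1 higher without sgGal4 1, and 3 lower and 2 higher without sgHS1-5 2. In sgHBG the count was 0 without sgHBG 2 or sgHBG 3.

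Of 6 genes that use glycine for heme and glutathione, all were tested. In sgHS2 2 rose (list median log2 0.26), in sgHS1-5 1 rose (-0.05), and in sgGal4 against WT 1 rose and 3 fell (-0.26). In sgHBG edgeR called 0 (median 0.06), with 1 higher at an unadjusted p under 0.05 and 0 called by DESeq2. ALAS2, the erythroid enzyme that joins glycine to succinyl-CoA, had 168, 186 and 165 CPM in sgHS2, against 67.2, 42.3 and 48.6 CPM in sgGal4 (log2 1.72 ± 0.18, edgeR adjusted p = 1.86e-05). In sgHS1-5, where SLC6A9 was lowest, ALAS2 was at 82.3, 55.6 and 85.2 CPM (edgeR adjusted p = 0.0377), a call lost without sgHS1-5 3 and without most other single libraries. ALAS2 was lower in sgGal4 than in WT, at 52.7 ± 13.0 CPM against 101 ± 0.266 CPM (edgeR adjusted p = 0.00165), while ALAS1, its housekeeping counterpart, was higher (log2 0.84 ± 0.20, edgeR adjusted p = 0.00511). GCLM, a subunit of the first enzyme of glutathione synthesis, rose in sgHS2 (log2 0.85 ± 0.18, edgeR adjusted p = 0.00305). The falls of GCLM and GSS in sgGal4 against WT (edgeR adjusted p = 0.0309 and 0.0240) were lost without either WT library. Without sgGal4 3, 1 gene was higher in sgHBG.

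Neutral amino acid transport and branched-chain catabolism, the solutes of SLC6A15, had 16 tested genes of 17. In sgHS2 2 rose and 2 fell (list median log2 0.01), in sgHBG 1 rose and 2 fell (0.04), in sgHS1-5 2 rose and 3 fell (-0.18), and in sgGal4 against WT 1 rose and 6 fell (-0.40). SLC3A2 and SLC7A5 form a heterodimeric exchanger of large neutral amino acids. SLC3A2 averaged 197 ± 5.96 CPM in sgHS1-5 and 414 ± 108 CPM in sgGal4 (log2 -1.07 ± 0.15, edgeR adjusted p = 0.000183). SLC7A5 was lower in sgHS1-5 by a log2 of -0.85 ± 0.14 (edgeR adjusted p = 0.000588) and in sgGal4 against WT by -0.87 ± 0.15 (edgeR adjusted p = 0.000581). SLC1A5, a glutamine and neutral amino acid exchanger, fell in sgHS1-5 (log2 -0.85 ± 0.09, edgeR adjusted p = 2.79e-05). SLC7A8, another partner of SLC3A2, averaged 15.5 ± 3.35 CPM in sgGal4 and 45.8 ± 0.708 CPM in WT (log2 -1.55 ± 0.15, edgeR adjusted p = 5.99e-06). Its rise in sgHS1-5 (edgeR adjusted p = 0.00631) was lost without sgHS1-5 2 and 3. SLC38A2, a sodium-coupled importer of small neutral amino acids, rose in sgHBG (log2 0.97 ± 0.18, edgeR adjusted p = 0.00204) and in sgHS2 (log2 0.55, and 0.33 without sgGal4 1), where BCAT1 rose and BCAT2 and SLC7A6 fell. The sgHS2 calls of SLC38A2 and BCAT2 were lost without sgHS2 1 or 3, and that of SLC38A2 also without sgHBG 1. The falls in sgHBG were of BCAT2 and BCKDHA, both lost without any 1 sgHBG library, that of BCAT2 also without sgGal4 1, sgHS1-5 3 or either WT library and that of BCKDHA without sgGal4 2 or 3. BCKDHB rose in sgHS1-5, a call lost without sgHS1-5 2 and 3 together. The sgHS1-5 count was 2 higher and 8 lower without sgGal4 1. The sgGal4 count against WT was 4 lower without WT 1 and 3 lower without WT 2. In sgHS2 the count was 2 without sgHS2 1 or 3, and in sgHBG it was 1 without any 1 of its own libraries and 5 without sgGal4 2.

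The amino acid response list holds genes that cells raise when amino acids are scarce, and all 7 were tested. In sgHS1-5 all 7 fell (list median log2 -1.68), in sgGal4 against WT 4 fell (-1.08), in sgHS2 3 rose and 1 fell (0.04), and in sgHBG 1 rose and 1 fell (0.21). ASNS, asparagine synthetase, had 72.6, 88.9 and 68.4 CPM in sgHS1-5, against 1198.3, 815 and 786 CPM in sgGal4 (log2 -3.61 ± 0.17, edgeR adjusted p = 4.40e-08). CHAC1, which cleaves glutathione, had 1.46, 3.41 and 1.35 CPM in sgHS1-5, against 27.4, 20.4 and 19.0 CPM in sgGal4 (log2 -3.39 ± 0.26, edgeR adjusted p = 1.83e-06). The groups did not overlap for either gene. TRIB3, a pseudokinase, fell in sgHS1-5 (log2 -1.89 ± 0.15, edgeR adjusted p = 2.76e-06) and in sgGal4 against WT (log2 -1.43 ± 0.16, edgeR adjusted p = 1.61e-05). SESN2, a leucine sensor, fell in both comparisons as well (log2 -1.31 ± 0.11, edgeR adjusted p = 5.45e-06 in sgHS1-5, and -1.24 ± 0.12, edgeR adjusted p = 5.71e-06 in sgGal4 against WT). The 4 falls in sgGal4 against WT were of ATF3, CHAC1, SESN2 and TRIB3. In sgHS2 ATF3, SESN2 and TRIB3 rose and ASNS fell (log2 -0.85 ± 0.15, edgeR adjusted p = 0.00110), and ASNS was also the fall in sgHBG (log2 -0.92 ± 0.15, edgeR adjusted p = 0.00101). Of the sgHS2 rises, that of ATF3 was lost without sgHS2 2, and that of TRIB3 without any 1 sgHS2 or sgHBG library, either WT library, sgGal4 2 or 3, or sgHS1-5 3. The 7 falls in sgHS1-5 were called in fits without sgGal4 1, without sgHS1-5 2 and 3, and without all 4 libraries that stood apart. The sgHS2 count was 1 higher and 1 lower without sgHS2 2. In sgHBG the rise, of SESN2 (edgeR adjusted p = 0.0499), was lost without any 1 of 11 libraries, sgGal4 1 among them.

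**Figure D4:**
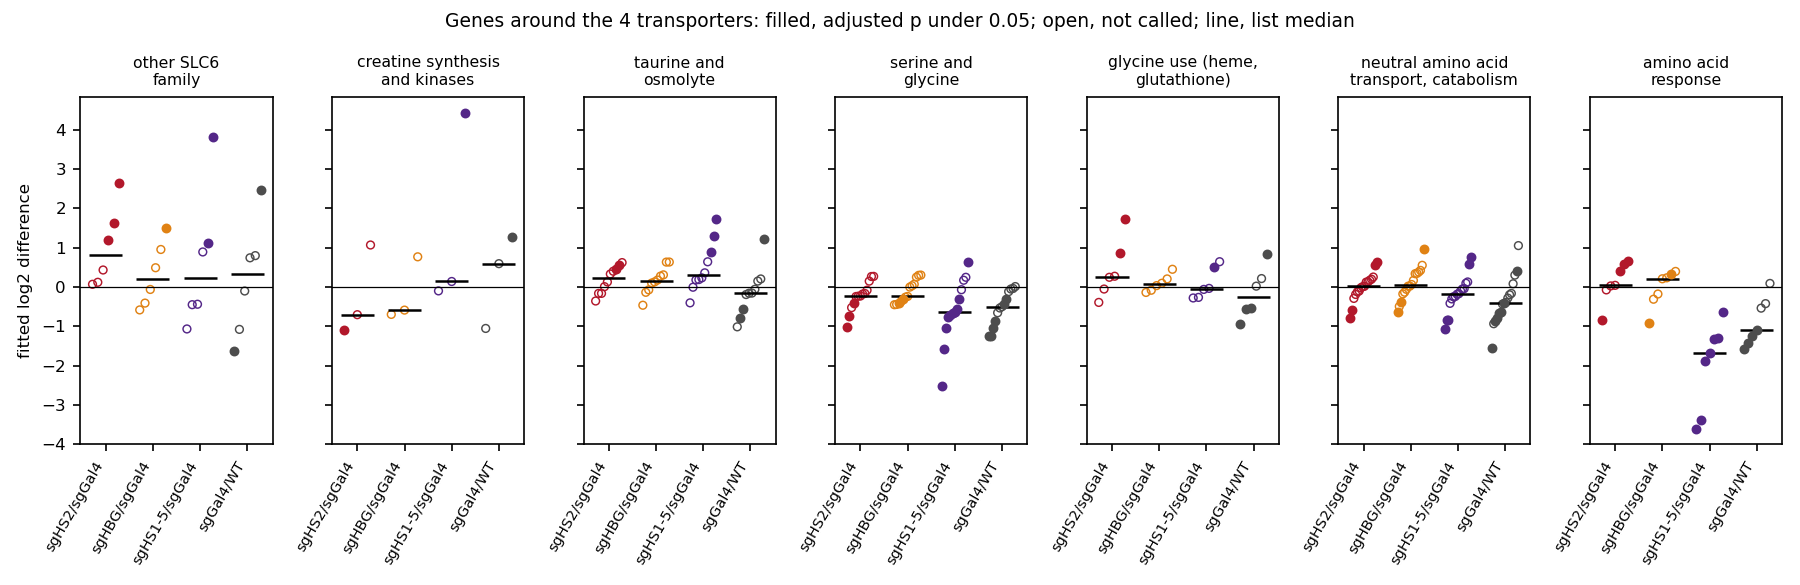
Fitted log2 differences of the pathway genes, 1 point per gene, in the 4 comparisons with edgeR tests. Filled points have an adjusted p under 0.05 and lines are list medians. In sgHS1-5 against sgGal4 all 7 amino acid response genes lie below 0, with a median of -1.68.

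For each transporter, the 3 genes with the most similar profile were named by the root mean square difference (RMS) of centred log2 CPM over the 14 libraries, among 13238 genes with a mean of at least 1 CPM. Replicates share their group, so this is a description of 5 groups as much as of 14 libraries. For SLC6A6, whose own RMS around its mean was 0.367, these were TMEM63A (0.0846), PRPF8 (0.0979) and PRKCA (0.101); sgGal4 1 was the lowest library in each. For SLC6A8, with an RMS of 1.17, these were MIR210HG (0.317), FCGR2B (0.430) and LDHA (0.488). MIR210HG, a microRNA host transcript, averaged 9.42 CPM in sgHS2, 2.18 in sgHBG, 13.5 in sgHS1-5, 2.12 in sgGal4 and 2.97 in WT. LDHA, a lactate dehydrogenase subunit, averaged 870 CPM in sgHS2, 472 in sgHBG, 1498 in sgHS1-5, 376 in sgGal4 and 368 in WT.

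For SLC6A9, with an RMS of 1.53, the most similar genes were FKBP9P1 (0.457), ADM2 (0.511) and IL20RB (0.515). ADM2, which encodes the peptide adrenomedullin 2, averaged 33.1 CPM in sgHS2, 32.0 in sgHBG, 4.57 in sgHS1-5, 25.5 in sgGal4 and 49.0 in WT. For SLC6A15, with an RMS of 2.67, they were COL24A1 (0.775), MLLT3 (0.785) and TOX (0.802). TOX, an HMG-box protein, averaged 0.675 CPM in sgHS2, 6.99 in sgHBG, 6.47 in sgHS1-5, 19.9 in sgGal4 and 0.0962 in WT. Ranked by Pearson's r in place of RMS, 2 names stayed for SLC6A6 (TMEM63A and PRKCA), 1 for SLC6A8 (MIR210HG) and none for SLC6A9 or SLC6A15. By RMS without the 4 libraries that stood apart, 0 of the 3 names stayed for SLC6A6, 1 for SLC6A8 (MIR210HG), 0 for SLC6A9 and 2 for SLC6A15 (MLLT3 and TOX). The names therefore depend on the measure and on the libraries.

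**Figure D5:**
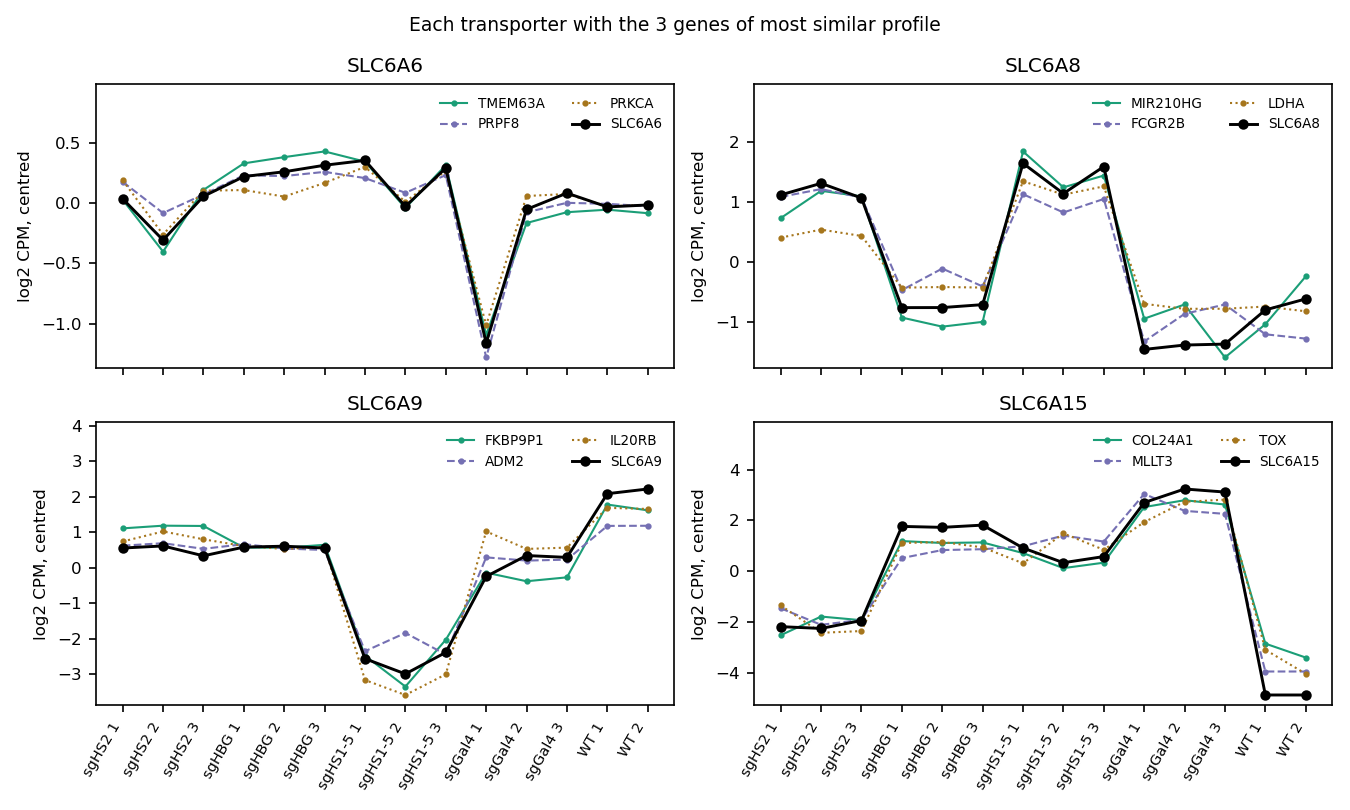
Centred log2 CPM of each transporter (black) and of its 3 most similar genes by RMS in each library. In the SLC6A6 panel sgGal4 1 is the lowest point, and the other 3 panels show steps between groups.

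The nearest annotated genes on each side were looked at for SLC6A8 and the others. PNCK, a calmodulin-dependent kinase gene beside SLC6A8, averaged 21.4 ± 5.41 CPM in sgHS2, 3.51 ± 1.09 in sgHBG, 18.3 ± 4.93 in sgHS1-5, 3.29 ± 1.21 in sgGal4 (SD, n = 3 each) and 10.4 ± 0.469 in WT (SD, n = 2). It rose against sgGal4 in sgHS2 (log2 2.74, edgeR adjusted p = 3.27e-05) and sgHS1-5 (log2 2.51, edgeR adjusted p = 6.29e-05, and log2 3.12 without the 4 libraries that stood apart) and fell in sgGal4 against WT (log2 -1.70, edgeR adjusted p = 0.00119). BCAP31, on the other side of SLC6A8, rose in sgHS2 (log2 0.87, edgeR adjusted p = 0.00555). It was not called in sgHBG (log2 0.46, edgeR adjusted p = 0.103) or sgHS1-5 (log2 0.32, edgeR adjusted p = 0.221). Its sgGal4 libraries were at 151.8, 83.1 and 87.7 CPM, so sgGal4 1 weighs on these values. It was at 144.9 to 151.7 CPM in sgHBG and 127 to 143.4 CPM in sgHS1-5, above sgGal4 2 and 3. Beside SLC6A9, CCDC24 had edgeR adjusted p-values of 0.246 to 0.804 in the 4 comparisons, and KLF17 had at most 2 reads. Beside SLC6A15, TMTC2 rose in sgGal4 against WT (log2 1.33, edgeR adjusted p = 0.0190), a call lost without either WT library, and TSPAN19 had at most 1 read. Beside SLC6A6, LSM3 fell against sgGal4 in all 3 populations with guides aimed at the cluster. The log2 values were -0.62, -0.72 and -0.81 (edgeR adjusted p = 0.0321, 0.0209 and 0.00702), in the order sgHS2, sgHBG and sgHS1-5. Its sgGal4 libraries were at 206.8, 110.7 and 109.1 CPM, and without sgGal4 1 the log2 values were -0.26, -0.35 and -0.44 (edgeR adjusted p = 0.0352, 0.00982 and 0.00151). The calls were lost in sgHS2 without sgHS2 1 or 3 and in sgHBG without any 1 of its libraries. GRIP2 had edgeR adjusted p-values of 0.0756 to 0.918.

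The 10 erythroid markers summed to 2548 to 2719 CPM in sgHS2, 1980 to 2006 in sgHBG, 1891 to 2398 in sgHS1-5, 1750 to 1947 in sgGal4, and 1551 and 1559 in WT, with at least 9 of 10 reaching 10 reads in every group. Markers of other blood cells also differed between some groups. The 5 T cell markers summed to 16.8 to 18.3 CPM in sgHS2, 11.3 to 14.2 in sgHBG, 28.3 to 30.0 in sgHS1-5, 1.65 to 5.25 in sgGal4, and 2.98 to 4.56 in WT, most of it CD3D. The 5 monocyte markers summed to 61.4 to 64.4 CPM in sgHS2, 82.2 to 93.4 in sgHBG, 83.4 to 554 in sgHS1-5, 149 to 203 in sgGal4, and 35.4 to 37.9 in WT, mostly LYZ, with FCN1 and S100A8 at 0 reads outside sgHS1-5. The 5 B cell markers summed to 9.07 to 119.8 CPM in sgHS1-5 and to at most 4.74 CPM elsewhere, where MS4A1 was at 0. The 5 fibroblast markers summed to 4.19 to 20.5 CPM over all libraries, with LUM at 0 in every library. Their part in the transporter levels was not tested. Without sgHS1-5 2 and 3, which held most of the transcripts nearly limited to sgHS1-5, the log2 differences of sgHS1-5 from sgGal4 were 3.05 for SLC6A8, -2.79 for SLC6A9 and -2.15 for SLC6A15.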

How the data were processed

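The deposited values were raw read counts per gene, whole numbers that the authors deposited for 24729 genes, and RPKM per gene, scaled by the authors to length and depth, for 25268 genes. TopHat, Cufflinks, DESeq and hg19 are named per the submitters' processing notes, without versions. The counting tool, annotation and use of strand are not given in the sources used here, so overlapping genes can share reads.

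Counts were fitted with edgeR 4.0.16 in R 4.3.3: filterByExpr (minimum count 10, minimum total count 15; 14406 genes), TMM scaling, all 14 libraries, group means (9 residual degrees of freedom), the quasi-likelihood F test and Benjamini-Hochberg adjustment over all genes, called under 0.05. Folds are ratios of mean TMM-scaled CPM, and log2 differences are fitted values with SE. A level of 0 was bounded with 3 counts over the group. That bound covers counting error only, as duplicate PCR reads were not told apart. The procedure was tested on simulated data without libraries that stand apart, so that test does not cover this feature of the real libraries.

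The 4 genes and the lists were chosen with earlier results of these data known, including comparisons in the same libraries. Up to 4 genes per list were named, those with the lowest p in any comparison. SLC6A16 and the flanking genes PNCK, BCAP31, CCDC24, KLF17, TMTC2, TSPAN19, LSM3 and GRIP2 fall outside that rule, as do genes of short counts (MTHFD1, DLD, SHMT1, SLC38A2, BCAT1, BCAT2, BCKDHA, BCKDHB, SLC7A6, AKR1B1, ATF3), named after their values were seen. Replicate numbers showed no clear pairing of libraries (5 of 26 same-numbered pairs correlated over 0.1), and the block was an alternative only. Libraries that stood apart weigh on these correlations, which cannot decide whether same-numbered libraries shared a batch. Alternatives were RLE size factors, other low-count filters, DESeq2 1.42.0, fits of the compared groups alone, deposited RPKM with 1 or 0.1 added before log2, and leaving out libraries singly or together. Where 1 library of a group was left, it was assumed to vary like the other groups. Promoters and chromosomes came from RefSeq tables (GRCh38.p14), matched by symbol.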

Additional observations from a re-analysis of the deposited data

How the results depend on the processing

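Of 36 log2 differences of the transporters, 30 kept 1 sign under every setting. Differences of SLC6A15 from WT, which had 0 reads of it, were not among them. Those that did not were SLC6A6 in sgHS2 against sgGal4, sgGal4 against WT, sgHS2 against WT and sgHS1-5 against sgHBG, SLC6A8 in sgHBG against WT, and SLC6A9 in sgHS2 against sgHBG. Each was smaller than its SE. In all, 19 of 910 alternative values moved by more than the replicate spread, mostly RPKM with 1 added: the SLC6A15 difference of sgHS2 from sgGal4 was then -3.45. Numbers of genes called depended more on the libraries. For sgHS2, sgHBG and sgHS1-5 against sgGal4 and sgGal4 against WT they were 4332, 3556, 5823 and 6103. Fits of the compared groups alone gave 2306, 2099, 2203 and 3502. Leaving out each library in turn gave 3029 to 5474, 2064 to 4073, 4424 to 6618 and 3906 to 7348. Without sgGal4 1 and sgHS2 2, sgHBG gave 5378, and without sgHS1-5 2 and 3, sgHS1-5 gave 2475. Without all 4, added after seeing the data, the numbers were 8424 for sgHS2, 7959 for sgHBG and 10069 for sgGal4 against WT. The cause was not tested. With the replicate number as a block they were 3904, 3055, 5380 and 5696. In that check 5 of 14 libraries correlated best with their own number. RLE size factors moved the median of all genes by at most 0.0116, and any setting by at most 0.047 (sgHS1-5 without sgHS1-5 2 and 3). The transporters' share of the family was 97.3% in sgHBG, 97.1% in sgHS1-5, 97.1% in sgGal4 and 97.6% in WT by counts in place of RPKM, and 96.01 to 96.28% in sgHS2, 96.23 to 96.61% in sgHBG, 97.26 to 97.43% in sgHS1-5, 95.17 to 96.23% in sgGal4 and 96 to 96.11% in WT without each library in turn. Of 644 alternative list counts, 153 moved by over 1.5 times, often counts of 1 to 3. Depth limits SLC6A15 in WT and sgHS2 and SLC6A9 in sgHS1-5.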
